A study of Rattus norvegicus with 9 samples.

Results

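Broad MBD3 peaks over low background were wide stretches of MBD3 ChIP signal whose local background lay under a set limit. A peak was taken when it spanned at least 400 bp, lay on chromosomes 1 to 20 or X, and had a local background below 3 times the background floor of its own list. The local background was worked back from the pileup and the fold enrichment of each peak summit, and the floor was the 25th percentile of these values in the list. Of 242324 distinct peak intervals in 7 lists, 3826 (1.58%) met the rule, and they merged into 2712 regions where intervals of different rats shared at least 1 bp. The 237141 intervals of 399 bp or less are called narrower peaks below and served as the comparison. These peaks were chosen by width, pileup and fold enrichment, so those values are given as a description only. A peak can have several summits: its tags and background are those of the tallest summit, and its fold enrichment is the highest over its summits, which can be another one.

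MBD3 is a subunit of NuRD, a complex that joins a nucleosome remodelling ATPase of the CHD family with histone deacetylases. NuRD acts at promoters and enhancers, where it limits or tunes transcription, and in neurons it takes part in silencing and in the shaping of synaptic connections. Despite its methyl-CpG-binding domain, mammalian MBD3 has little affinity for methylated DNA compared with its relative MBD2.

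The material came from male Sprague-Dawley rats, and the tissue was one block of amygdala with piriform, perirhinal and entorhinal cortex, so cell types were not separated. All rats carried electrodes in the left lateral amygdala and all were killed on day 14, counted from stimulation. In 4 rats the amygdala was stimulated for 20 min at 400 µA to evoke status epilepticus, which diazepam (20 mg/kg) ended after 1.5 h, and 3 sham-operated rats had neither stimulation nor a recorded diazepam dose. The series set MBD3 binding after stimulation against that after the sham operation. Each rat gave 1 list of peaks, called against 1 input library per group. Bulk tissue cannot tell fewer cells with a bound site from less binding per cell.

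The sham libraries held 2436208 to 3668143 filtered ChIP tags and the stimulated libraries 4812579 to 17960510. Stimulated rat 3 kept the smallest part of its tags in filtering, 4812579 of 22168572, while stimulated rat 1 kept 17960510 of 19757739. What the loss in stimulated rat 3 did to its list was not tested. The sham input held 5241067 filtered tags and the stimulated input 33279049, so depth, input and treatment cannot be told apart. Stimulated rats 1 and 3 stood apart from the other 5 rats. Among narrower peaks, 2.71% in stimulated rat 1 and 10.1% in stimulated rat 3 had their tallest summit inside a peak of any other list, against 35.2% to 68.7% in the other lists. Results below are given with and without these 2 lists where they bear on them.

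Broad low-background peaks were plentiful in 2 stimulated rats and scarce in the other 2. Stimulated rats 2 and 4 had 2033 and 1224 of them, stimulated rat 1 had 48 and the list of stimulated rat 3 held only 1. In sham animals the numbers were 378, 93 and 49, in the order of replicates 1 to 3. The groups therefore overlapped, with stimulated rats both above and below every sham rat. On the log10 scale the stimulated mean differed from the sham mean by −0.0594, a ratio of geometric means of 0.872 (p = 1, two-sided exact permutation over 35 splits of 3 sham and 4 stimulated rats). Such a test, doubling its smaller tail, could not give less than 0.0571. The direction turned without sham rat 1 (0.190), stimulated rat 1 (0.0532) or stimulated rat 3 (0.614), and without stimulated rats 1 and 3 together it was 1.12.

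Taken as a share of the list, stimulated rats 2 and 4 again lay highest and stimulated rat 3 lowest. Broad low-background peaks made up 1.19% of the distinct peaks of sham rat 1 (95% Clopper-Pearson interval 1.07 to 1.31%), 0.669% in sham rat 2 (0.541 to 0.820%) and 0.407% in sham rat 3 (0.301 to 0.537%). Stimulated rats 2 and 4 had nearly the same share, 1.87% (1.79 to 1.96%) and 1.91% (1.81 to 2.02%). Stimulated rat 1 had 0.514% (0.380 to 0.681%) and stimulated rat 3 had 0.0371% (0.00094 to 0.207%). These intervals cover counting error only. The mean share of 3 sham rats was 0.754% with an SD of 0.397, and that of 4 stimulated rats was 1.08% with an SD of 0.954. The test did not tell the groups apart (p = 0.514, two-sided exact permutation, smallest possible 0.0571). Scaled to filtered tags (per 1000000), the lists held 103, 34.2 and 20.1 broad low-background peaks in sham rats 1 to 3 and 2.67, 266, 0.208 and 99.1 in stimulated rats 1 to 4. The deepest ChIP library, that of stimulated rat 1, thus had fewer per tag than all lists but that of stimulated rat 3.

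**Figure D1:**
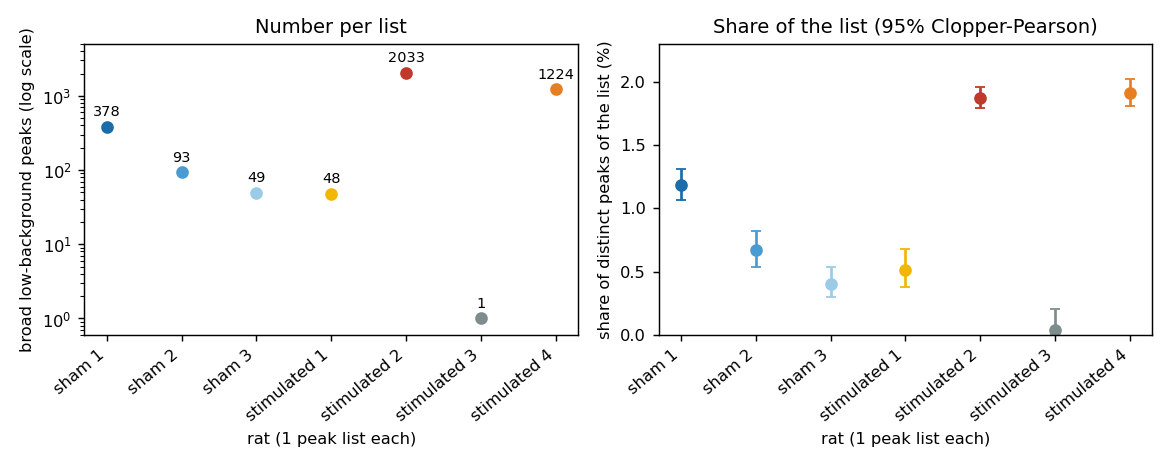
Number of broad low-background MBD3 peaks per rat on a log axis (left) and their share of the distinct peaks of the list in percent (right), with bars for 95% Clopper-Pearson intervals. Stimulated rats 2 and 4 lie highest, at 2033 and 1224 peaks, and stimulated rat 3 lowest, with 1.

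When each list was cut to its 2692 strongest peaks by p-value, the gap between rats widened. Broad low-background peaks then made up 17.7% of the peaks of stimulated rat 2 and 12.9% of those of stimulated rat 4. The share was 5.65%, 2.41% and 0.966% in sham rats 1 to 3, 1.04% for stimulated rat 1 and 0.0371% for stimulated rat 3. Again the groups overlapped (difference of 4.90 percentage points, p = 0.514 by two-sided exact permutation of 3 and 4 rats). The cut kept the whole list of stimulated rat 3 but only the top of the 108471 peaks of stimulated rat 2 and the 64033 of stimulated rat 4. In stimulated rats 2 and 4 broad peaks had the higher median −log10 q (7.99 against 3.93, and 6.56 against 3.58). The single broad peak of stimulated rat 3 had 1.59 against 2.12. Such a cut therefore favours broad peaks in the long lists, and the wider gap is a description. Lists of equal length were chosen as a setting after the data had been seen.

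Most of these peaks were only modestly wider than the rule asks. Median width ranged from 445 to 475 bp in the 6 lists with more than 1 such peak, and 90% of them were no wider than 576.8 to 670.0 bp. Narrower peaks had a median width of 150 to 166 bp, close to the 150 bp to which the authors extended each tag. At the edge of the rule, 38 peaks of exactly 400 bp had a median of 6.29-fold enrichment and 11 tags at the tallest summit, and 41 low-background peaks of 399 bp had 6.20-fold and 10 tags. The peak nearest the background limit from inside had 2.997 times the floor and 4.23-fold enrichment, and the nearest from outside had 3.08 times and 4.50-fold, both in stimulated rat 2.

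The pileups under these peaks were low in absolute terms. The median number of tags at the tallest summit was 9, 8 and 8 in sham rats 1 to 3, and 12, 12 and 13 in stimulated rats 1, 2 and 4. The tallest summit of any such peak held 51 tags. Median fold enrichment over the authors' local background was 6.18, 6.82 and 6.14 in the sham lists, 4.50 in stimulated rat 1, 7.16 in stimulated rat 2 and 6.04 in stimulated rat 4. Narrower peaks of the same lists had medians of 4.07 to 5.02. The floor itself was 0.195 to 0.294 tags in sham lists and 0.386 to 1.44 tags in stimulated lists. A background at the floor (below 1.01 times it) was found under the tallest summit of 12.9% to 22.5% of the sham peaks and of 36.9% to 39.6% of the peaks of stimulated rats 1, 2 and 4. Among narrower peaks of all lists this share was 49.5% to 60.2%. The median background of the broad peaks was 2.23 to 2.38 times the floor in sham rats. In stimulated rats 1, 2 and 4 it was 1.12 to 1.15 times. Narrower peaks had medians of 1 to 1.03 times, so in these lists the broad peaks stood over the higher background. The groups had inputs of different depth, so group differences in background and floor shares cannot be told apart from input. The background limit was met by 22.2% to 55.9% of sham peaks of at least 400 bp, and by 42.1%, 86.4%, 12.5% and 82.6% in stimulated rats 1 to 4, so that the groups overlapped.

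A second summit was common. The authors' peak caller split 33.3%, 35.5% and 30.6% of these peaks into 2 or more summits in sham rats 1 to 3, and 43.8%, 41.9% and 42.6% in stimulated rats 1, 2 and 4. In narrower peaks the share was 0.125% to 0.456%, as a peak of that width leaves little room for another summit. Of the 3826 peaks, 2385 had 1 summit within the rule, 1323 had 2, 100 had 3 and 18 had 4. In 145 peaks a further summit lay over a background past the limit. Neighbouring summits within a peak were spaced by a median of 236 to 248 bp in the 6 lists with such peaks. The middle range of this spacing, from the 25th to the 75th percentile, was 210 to 301.8 bp in stimulated rat 2 and 210 to 296.8 bp in stimulated rat 4.

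Sites of broad low-background peaks were found again in other rats more often than sites of narrower peaks in 5 of 7 lists. The test used a single base, the tallest summit, so that the width of the peak tested gave no advantage. A wide peak in the other list is still easier to meet. In sham rats 1 to 3 that base lay inside a peak of at least 1 other list for 91.3% (345 of 378), 92.5% (86 of 93) and 98.0% (48 of 49) of broad low-background peaks, against 56.3%, 63.8% and 68.7% of narrower ones. For stimulated rat 2 the shares were 85.6% (1740 of 2033) and 35.2%, and for stimulated rat 4 they came to 92.4% (1131 of 1224) and 49.7%. For stimulated rat 1 they were 2.08% (1 of 48) and 2.71%, and the single peak of stimulated rat 3 was not found again. Over all lists the mean difference was 25.0 percentage points ± 22.3 (SD, n = 7), which missed the 0.05 threshold (exact sign-flip permutation test over lists, two-sided p = 0.0625, smallest possible 0.0156). Without stimulated rats 1 and 3 it was 37.2 points ± 9.30 (SD, n = 5), positive in 5 of 5 lists, where the same exact test gave its smallest possible p of 0.0625. Each overlap of 2 lists enters the values of both, and the lists of a group share an input, so the lists are not fully independent.

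Peaks with a higher significance score recurred more often as well. Against narrower peaks at or above the median −log10 q of the broad ones, the difference shrank to 9.02 points (exact sign-flip permutation test, two-sided p = 0.109, n = 7). Recurrence also rose with width. In stimulated rat 2 it was 30.6% for peaks of 150 to 199 bp, 50.0% at 200 to 299 bp, 67.9% at 300 to 399 bp, 82.2% (95% Clopper-Pearson interval 79.9 to 84.3%) at 400 to 499 bp, 90% (87.4 to 92.2%) at 500 to 699 bp and 93.4% (88.5 to 96.6%) above that. Stimulated rat 4 went through the same steps from 45.3% to 97.6%, and sham rat 1 from 52.0% to 96.4%. Sham rat 2 did not rise at every step, with 91.7% at 300 to 399 bp and 89.1% at 400 to 499 bp. Median −log10 q and pileup also rose along these steps, from 3.85 and 7 tags to 10.3 and 15 tags in stimulated rat 2, and their part in the result was not tested beyond the comparison above. In stimulated rat 1 the values stayed between 0% and 11.3%. Peaks of at least 400 bp over a higher background recurred in 98.0% to 100% of cases in the 5 lists other than those of stimulated rats 1 and 3.

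**Figure D2:**
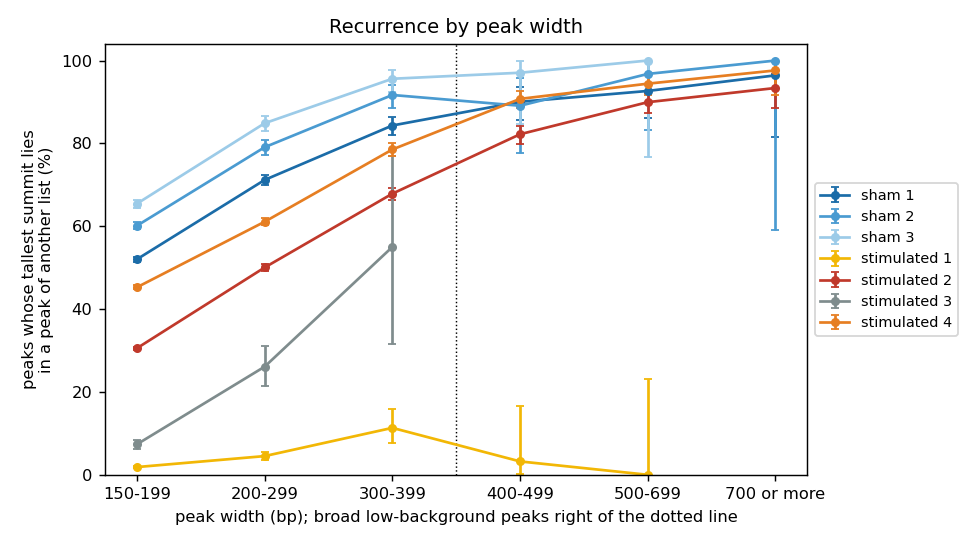
Share of peaks whose tallest summit lies inside a peak of at least 1 other list (percent, vertical axis) by peak width (horizontal axis), with 1 line per rat, 95% Clopper-Pearson intervals, and width classes of under 5 peaks left out. Lines of 5 rats reach between 93.4% and 100% in their widest class, while that of stimulated rat 1 stays at or below 11.3%.

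The same sites were met across the treatment groups, whose inputs differ. Of the broad low-background peaks of sham rat 1, 84.7% had their tallest summit in a peak of stimulated rat 2 and 70.4% in one of stimulated rat 4, against 44.7% and 28.8% of its narrower peaks. For sham rat 2 the shares were 86.0% and 74.2%, and for sham rat 3 they were 93.9% and 91.8%. Of the broad peaks of sham rat 1, 45.5% were met in the shorter list of sham rat 2 and 33.6% in that of sham rat 3. In the other direction, 44.4% of the broad peaks of stimulated rat 2 were met in sham rat 1, 22.5% in sham rat 2 and 19.9% in sham rat 3, against 12.0%, 5.46% and 5.14% of its narrower peaks. Stimulated rat 4 met 77.5% of the broad peaks of stimulated rat 2, and stimulated rat 2 met 88.7% of those of stimulated rat 4. Stimulated rat 1 met 0 broad peaks of each sham rat, and stimulated rat 3 met 5 of sham rat 1, 2 of sham rat 2 and 0 of sham rat 3.

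In 5 of 6 lists, the peaks of other rats met by broad low-background peaks were wide more often than those met by narrower ones. The same 400 bp limit picked the broad peaks of every list, and a pair of them counts in both lists, so the lists are not fully independent. Among the peaks of other lists that were met, those of at least 400 bp made up 48.7%, 52.9% and 69.7% for the broad low-background peaks of sham rats 1 to 3, and 32.6% and 44.0% for those of stimulated rats 2 and 4. For narrower peaks of these lists the share was 1.45% to 11%. The list of stimulated rat 1 went the other way, with 0 of 1 met peaks against 23.0%, and that of stimulated rat 3 met none. The mean difference was 31.9 points ± 28.3 (SD, n = 6 lists), which missed the threshold (exact sign-flip permutation test, two-sided p = 0.0625, smallest possible 0.03125). Without stimulated rats 1 and 3 it was 43.1 points ± 9.84 (SD, n = 5), higher in 5 of 5 lists, at the smallest exact p that 5 lists allow, 0.0625.

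A broad peak of one rat was often a narrower one in another. Of the 902 broad peaks of stimulated rat 2 that were met in sham rat 1, 185 were broad low-background peaks there, 677 were narrower and 40 were wide but over a higher background. In stimulated rat 4, 772 of 1575 were broad low-background peaks and 796 were narrower. Broad peaks of the sham rats fell on wide peaks over a higher background in stimulated rat 2 in 28 of 320, 22 of 80 and 5 of 46 cases for sham rats 1 to 3. A broad peak over separate smaller peaks of another rat was the exception: of 1247 broad peaks of stimulated rat 2 that overlapped sham rat 1, 123 (9.86%) lay over 2 or more of its peaks. Of the 2712 merged regions with a broad low-background peak, 446 held peaks of all 3 sham rats and of stimulated rats 2 and 4. Every merged region was picked for such a broad peak, which stimulated rat 2 had at 2032 of the 2712 and stimulated rat 4 at 1221. At the 446 regions the median width was 347, 257 and 240.5 bp for sham rats 1 to 3. It was 482.5 bp for stimulated rat 2 and 433 bp for stimulated rat 4, in the order of list lengths within each group. Median pileups at these regions were 10, 7 and 7 tags in the sham rats and 16 tags in both stimulated rats, whose libraries were deeper. The choice of regions favours wide peaks in the rats that were broad most often, so these widths and pileups are a description only.

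Where stimulated rats 2 and 4 both had a broad low-background peak, the borders nearly coincided. Over 772 such pairs the shared part covered a median of 88.0% of the joint span (25th to 75th percentile 79.5 to 93.3%). Starts lay a median of 28 bp apart and ends 27 bp apart. The number of summits was equal in 404 pairs (52.3%). Tallest summits were a median of 47 bp apart for the broad peaks of stimulated rat 2 met in stimulated rat 4, and 19 bp apart for its narrower peaks.

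Regions with a broad low-background peak were mostly shared, but rarely broad in many rats. Of the 2712 merged regions, 1781 (65.7%) were broad in 1 rat, 781 in 2, 124 in 3, 25 in 4 and 1 in 5. Of those broad in 1 rat, 1564 (87.8%) held some peak of another rat. Both groups had a broad peak in 251 regions, stimulated rats alone in 2256 and sham rats alone in 205. Those counts ask where a region was broad. Classed by any peak instead, 72.7% of all merged regions held peaks of stimulated rats alone, 12.8% of sham rats alone and 14.6% of both. By that same measure, regions with a broad low-background peak had 28.8%, 0.738% and 70.4%. Of the 2256, 1474 (65.3%) held a peak of a sham rat, and of the 205, 185 (90.2%) held a peak of a stimulated rat. Stimulated rats 2 and 4 were both broad in 795 regions, and 663 of these (83.4%) held a peak in at least 1 sham rat and 215 in all 3. When all peaks of all lists were merged instead, 217 of 2711 regions with a broad low-background peak (8.0%) came from 1 rat, against 129893 of all 176202 regions (73.7%). Wider regions have more room for a peak of another list, so these comparisons with all regions are descriptions.

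**Figure D3:**
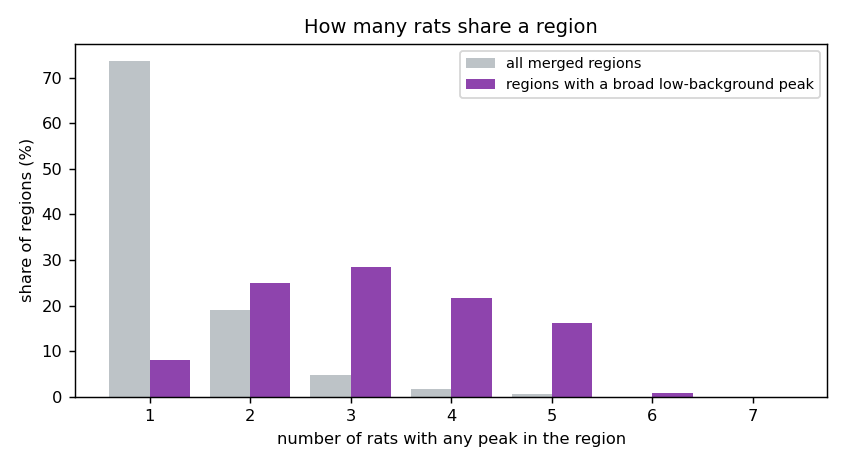
Share of merged regions (percent, vertical axis) by the number of rats with any peak in the region (horizontal axis), for all 176202 regions in grey and for the 2711 with a broad low-background peak in purple. Of all regions 73.7% come from 1 rat, against 8.0% of those with a broad low-background peak.

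One region was broad in 5 rats. It lay on chromosome 6 at 31056685 to 31057319, in the coordinates of the deposited lists, whose build the sources used here do not give, so no gene or exon could be assigned to it or to the regions below. Its peaks were 627, 557 and 567 bp wide in sham rats 1 to 3, 612 bp in stimulated rat 2 and 569 bp in stimulated rat 4. Fold enrichment was 7.04, 4.61, 7.82, 11.8 and 4.90 in the same order, with pileups of 9, 6, 9, 18 and 13 tags. Stimulated rats 1 and 3 had no peak there.

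Of the 25 regions broad in 4 rats, the one with the highest lowest value lay on chromosome 10 at 83765190 to 83765745. Lowest values and width ranges of these regions cover only the rats that were broad there, so a narrower peak of another rat can lie below them. Fold enrichment there was 9.41, 9.88 and 11.9 in sham rats 1 to 3, and 9.85, 4.64 and 9.98 in stimulated rats 2, 3 and 4. Its peaks in sham rat 3 (220 bp) and stimulated rat 3 (150 bp) were narrower, and the other 4 were 487 to 552 bp wide. It was met in 6 of 7 rats, as were 22 of the merged regions. Next came chromosome 5 at 111777331 to 111778021, with a lowest value of 7.39-fold and widths of 557 to 685 bp, and chromosome 1 at 5472868 to 5473302, with 6.95-fold and 400 to 435 bp. On chromosome 2 at 272132320 to 272133034 sham rat 1 reached 13.9-fold over 699 bp, stimulated rat 2 reached 11.3-fold over 689 bp and stimulated rat 4 had 7.11-fold over 681 bp. Sham rat 2 had 6.58-fold over 424 bp there, and sham rat 3 had 2 narrower peaks, the wider of 396 bp. The other regions so ranked were on chromosome 16 at 29968957 to 29969506, chromosome 14 at 42956764 to 42957347 and chromosome 10 at 75868193 to 75868844, with lowest values of 6.58-, 6.53- and 6.18-fold. In all 8 regions stimulated rats 2 and 4 and sham rat 1 were broad, and stimulated rat 1 had no peak.

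The widest broad low-background peaks lay elsewhere. First was a peak of 1772 bp in sham rat 1 on chromosome 1 at 189008963 to 189010734, with 5 summits, 24 tags and 14.4-fold enrichment. Not all of its summits met the background limit, with 9.51 and 3.92 times the floor at those past it. The widest peak of stimulated rat 2 inside this peak spanned 587 bp, with 23 tags and 4.30-fold enrichment, and that of stimulated rat 4 spanned 430 bp, with 28 tags and 3.44-fold enrichment. Both stood over a background of 7.49 times the floor, and each of these rats had another peak beside it within the region. Sham rat 2 had a broad low-background peak in the region as well, with 11.2-fold enrichment, and sham rat 3 had 2 narrower peaks. Next was a peak of 1567 bp in stimulated rat 1 on chromosome 19 at 396342 to 397908, with 4 summits, 28 tags at the tallest and 6.87-fold enrichment at another, where no other rat had a peak. The last of the 3 was 1513 bp wide, in sham rat 1 on chromosome 1 at 187518085 to 187519597, with 10.95-fold enrichment at best. Its tallest summit had 31 tags and 10.3-fold enrichment over 7.14 times the floor, so that it met the rule through its other summits.

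The 18 peaks with 4 summits within the rule were 1 of stimulated rat 1, 7 of stimulated rat 2 and 10 of stimulated rat 4. The 3 widest of them were the chromosome 19 peak just described and 2 peaks of stimulated rat 2. One of these spanned 1384 bp on chromosome 20 at 36292383 to 36293766, with 11.3-fold enrichment and 18 tags. Stimulated rat 4 had a peak of 1333 bp with 4 summits there (7.53-fold, 14 tags), sham rat 3 one of 660 bp with 3 summits (8.06-fold, 11 tags), and sham rats 1 and 2 had narrower peaks of 167 and 247 bp. The other lay on chromosome 10 at 82314881 to 82316224 and spanned 1344 bp with 9.39-fold enrichment. Under it stimulated rat 4 and sham rat 1 had broad peaks of 681 and 491 bp, and sham rats 2 and 3 had peaks of at most 150 and 151 bp.

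**Figure D4:**
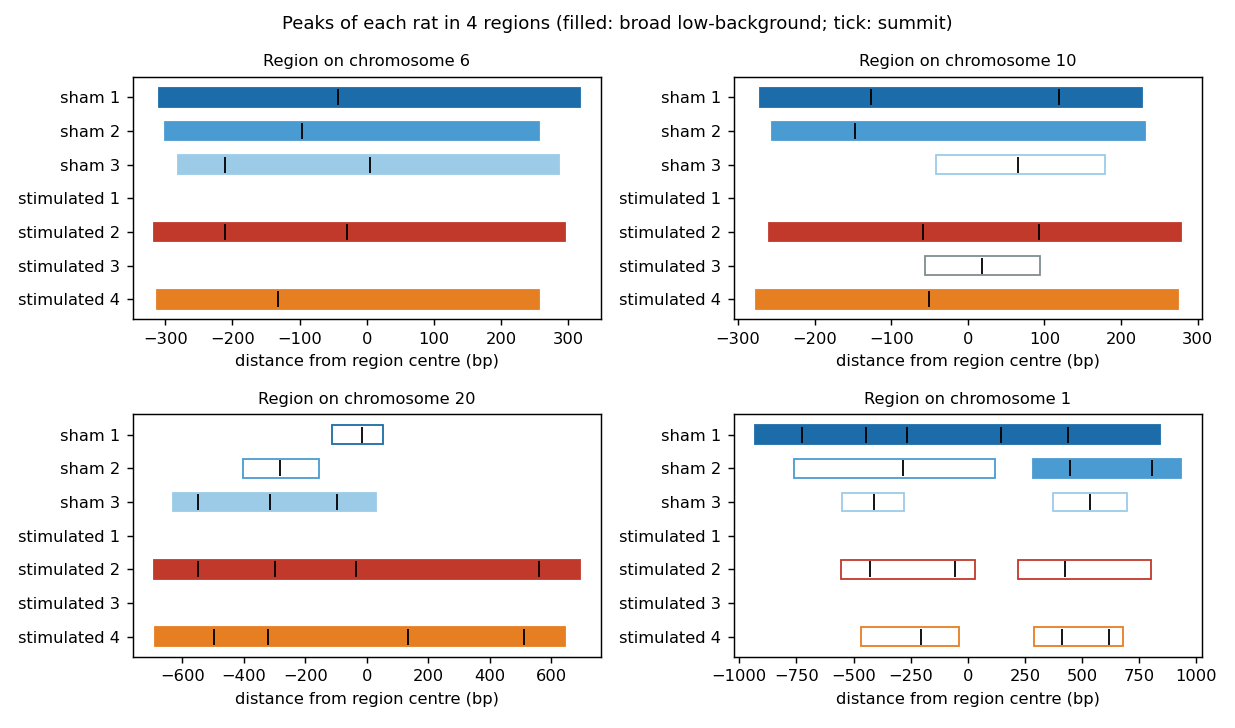
Peaks of each rat (rows) in 4 regions, by distance from the centre of the region in bp, with filled bars for broad low-background peaks, open bars for other peaks and ticks for summits. On chromosome 6 all 3 sham rats and stimulated rats 2 and 4 are broad, on chromosomes 10 and 20 some sham rats are narrower, and on chromosome 1 the wide peak of sham rat 1 stands over shorter peaks of 4 other rats.

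Few regions with a broad low-background peak separated the groups. Of 2711 such regions, 1 (0.0369%) held a peak of each of the 3 sham rats without any of a stimulated rat, a pattern seen in 0.0272% of all merged regions. It lay on chromosome 15 at 63274388 to 63274804, was broad in sham rat 1 (417 bp, 6.18-fold, 7 tags) and 169 bp wide in sham rats 2 (5.75-fold, 6 tags) and 3 (5.86-fold, 6 tags). The opposite pattern, all 4 stimulated rats without a sham rat, had 0 of the 2711 and 0.00341% of all regions. By Fisher's exact test (two-sided) 1 of the 2711 had an unadjusted p below 0.05 and 0 passed Benjamini-Hochberg adjustment over all regions, which 7 rats could hardly reach with a smallest exact p of 0.0286. The count of 1 became 0 without sham rat 1, 4 without sham rat 2 or sham rat 3, and 15 without stimulated rat 2.

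With 3 stimulated rats or more asked for, and again without a sham rat, there were 8 of the 2711 regions (0.295%), against 0.0516% of all regions. The count fell to 2 without stimulated rat 3 and to 0 without stimulated rat 2 or stimulated rat 4, and rose to 17 without sham rat 1. The 3 with the highest lowest values, here over all rats with a peak in the region, were all on chromosome 8. At 57268451 to 57268929 fold enrichment was 9.78, 6.34 and 7.64 in stimulated rats 2, 3 and 4, with widths of 479, 204 and 470 bp. At 64158278 to 64158800 it was 4.69, 4.33 and 5.52, and at 12068244 to 12068709 it was 11.3, 4.18 and 5.68, and both were broad in stimulated rat 2 alone. Pileups were 5 to 9 tags in stimulated rat 3 at the 3 regions. Every sham library was shallower than every stimulated one.

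Broad low-background peaks had a neighbour nearby more often than narrower peaks did. Another peak of the same list lay within 10 kb of 42.1%, 50.5% and 22.4% of the broad peaks in sham rats 1 to 3, against 27.9%, 16.4% and 14.3% of narrower ones. In stimulated rats 1, 2 and 4 the shares were 60.4%, 68.1% and 55.1%, against 22.5%, 61.2% and 46.3%, and the single peak of stimulated rat 3 had no neighbour. The difference averaged 15.1 points ± 15.4 (SD, n = 7), was positive in 6 of 7 lists and passed the threshold (exact sign-flip permutation test, two-sided p = 0.03125). Of the 6 positive differences the smallest was 6.94 points, in the longest list, that of stimulated rat 2, where most narrower peaks had a neighbour too. Without any 1 of sham rats 1, 2 and 3 and stimulated rats 1, 2 and 4 the exact p was 0.0625, with differences of 15.2, 11.9, 16.2, 11.3, 16.4 and 16.1 points. Within 50 kb the difference was 6.64 points and no longer passed (exact p = 0.297). It was 6.93 points with a minimum width of 300 bp, 28.7 at 500 bp, 36.3 without the background limit and 9.40 against narrower peaks at or above the median −log10 q of the broad ones.

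Broad low-background peaks were crowded at a few places. Of 1435 windows of 1 Mb with such a peak, the median held 2 over all lists, and the highest number was 24, on chromosome 1 from 187 to 188 Mb. There sham rats 1 to 3 had 10, 9 and 2 broad low-background peaks, stimulated rat 2 had 3 and the other stimulated rats 0. The sham rats had 133 to 146 peaks of any kind in that window and stimulated rats 2 and 4 had 150 and 141. Of these, 86 and 65 in the stimulated rats and 55 to 78 in the sham rats were wide over a higher background. On chromosome 17 from 59 to 60 Mb the sham rats had 10, 7 and 2 broad low-background peaks, stimulated rats 1 and 2 had 1 each and stimulated rats 3 and 4 had 0, while all peaks numbered 71, 53 and 43 in sham rats and 88 and 53 in stimulated rats 2 and 4. On chromosome 13 from 49 to 50 Mb the order of the counts was the reverse, with 7 and 5 in stimulated rats 2 and 4 and 2, 0 and 1 in sham rats. All peaks there numbered 91 and 55 in these stimulated rats and 16, 13 and 12 in sham rats. As a share of the broad peaks of each list the window held 0.344% and 0.408% in stimulated rats 2 and 4. In sham rats 1 to 3 that share was 0.529%, 0% and 2.04%, so the reverse order held for counts only. These windows were picked for their numbers, so no test was made.

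No chromosome passed the test for a different share of broad low-background peaks. Chromosomes 2, 4 and 5 held a smaller share of the broad than of the narrower peaks in 7 of 7 lists, with mean differences of −3.49, −3.82 and −2.87 percentage points. The single peak of stimulated rat 3, on chromosome 13, makes that list lower on every other chromosome. Chromosomes 2, 4 and 5 each reached an exact sign-flip p of 0.0156, the smallest that 7 lists allow. After Benjamini-Hochberg adjustment over 21 chromosomes this was 0.109, so 0 of 21 passed. A few chromosomes at the smallest p cannot pass this adjustment, so the test could not show that the shares were equal. In the 2 longest lists these gaps were small: chromosome 4 held 6.44% of the broad and 7.14% of the narrower peaks in stimulated rat 2, and 6.62% and 6.96% in stimulated rat 4. Chromosome 12 held a larger share in 6 of 7 lists, with 3.89% against 2.32% in stimulated rat 2, 3.68% against 2.77% in stimulated rat 4 and 2.91% against 1.71% in sham rat 1 (adjusted exact p = 0.562 over the 7 lists). On chromosome X stimulated rat 2 had 6 broad peaks (0.295%, against 1.08% of narrower ones) and stimulated rat 4 had 2 (0.163% of its broad peaks), while sham rat 2 and stimulated rat 1 had a larger share of broad than of narrower peaks there.

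One chromosome stood out in stimulated rat 1. Chromosome 19 held 13 of its 48 broad low-background peaks (27.1%) against 5.45% of its narrower peaks. In the other 5 lists with more than 1 broad peak, chromosome 19 held 2.04% to 3.70% of them.

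**Figure D5:**
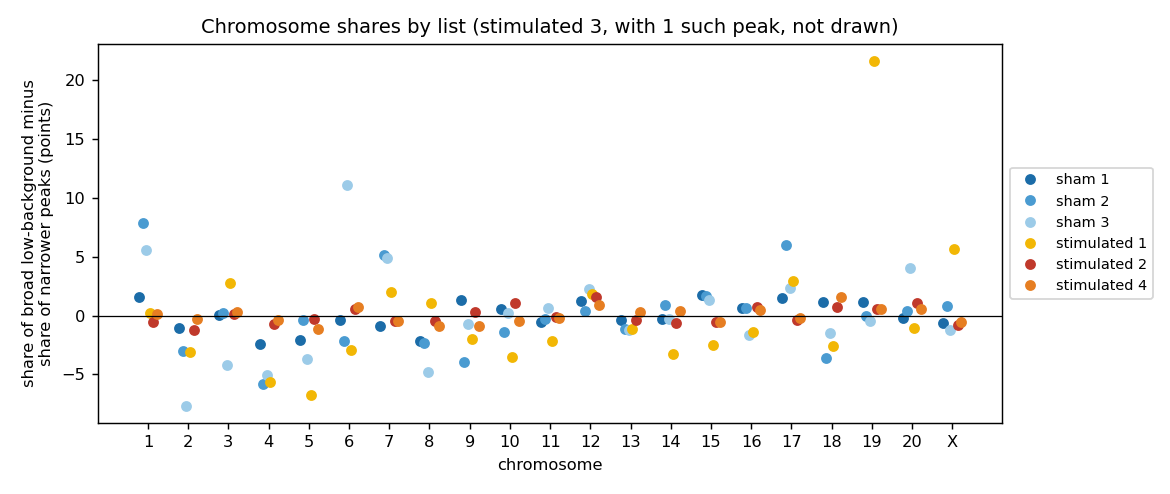
Share of broad low-background peaks minus share of narrower peaks on each chromosome, in percentage points, with 1 point per list and stimulated rat 3 left out because it had 1 such peak. Points of all 6 lists lie below 0 on chromosomes 2, 4 and 5, and the highest point is chromosome 19 of stimulated rat 1, at 21.6.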

How the data were processed

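MBD3 ChIP-seq peak lists of 7 rats (3 sham, 4 stimulated) were used, grouped by the treatment label. Tools listed in the submitters' processing notes are MACS2 2.1.0.20141030, Bowtie 1.0.0 and cutadapt 1.7.1. Per the file headers, peaks were called per rat against the input of its group, with tags extended to 150 bp, 1 tag kept per position, sub-summits reported and a q threshold of 0.1. The deposited pileup is a signal in tags at the summit. The deposited −log10 p-value and −log10 q-value are those of the authors' peak caller. The deposited fold enrichment is the authors' ratio, (pileup + 1)/(local background + 1). They are not scaled between lists, so values of different rats set side by side, and regions ranked by the lowest of them, are descriptions.

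Local background was recomputed as (pileup + 1)/fold − 1. Entries sharing an interval were joined. Position, pileup and background were taken from the tallest summit, and fold enrichment, p and q as the highest over the summits. Groups were compared by exact permutation over 35 splits, and broad with narrower peaks of a list by exact sign flips over lists. Python 3.11.15, pandas 2.3.3 and SciPy 1.17.1 were used, and the measures were tested on simulated data. Coordinates count from 1. Peaks pass the last gene of the GRCr8 gene table on 13 of 21 chromosomes, so that table was not used for genes, and no sequence was read.

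Regions were named by rule: up to 8 broad in most rats, ranked by lowest fold enrichment, the 3 widest, the 3 with most summits, and up to 3 per group pattern. The members and lists were chosen with earlier results of these data known. Other settings were widths of 300 and 500 bp, background limits of 2 times or none, a −log10 q of at least 3, other comparison peaks, overlaps and distances, merging across 500 bp, and leaving out each rat. Equal lists and leaving out stimulated rats 1 and 3 were added after the data were seen.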

Additional observations from a re-analysis of the deposited data

Results flagged for a closer look

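Of 12 measures compared over the 4 stimulated rats, 2 set a single rat apart. The limit used is one that chance passes in about 1 of 20 groups of like measurements, which does not carry over to values from a single peak. Both come from stimulated rat 3, whose list held 1 broad low-background peak, on chromosome 13. Its median pileup was 5 tags, against 12 to 13 in the other stimulated rats, and 0% of its broad peaks had more than 1 summit, against 41.9% to 43.8%.

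On chromosome 15 the share of broad minus the share of narrower peaks was positive in all 3 sham rats (1.79, 1.7 and 1.33 percentage points) and negative in all 4 stimulated rats (−2.51, −0.589, −4.28 and −0.514 points). The means differed by −3.58 points, and this difference was not tested. Chromosome 15 was flagged out of 21 chromosomes, and the only broad peak of stimulated rat 3, on chromosome 13, makes the value of that rat negative here. Stimulated rats 1 and 3 had 0 broad peaks on this chromosome, and sham rats 2 and 3 had 6 and 3.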

How the results depend on the processing

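No paired analysis was possible because the labels give each rat an identity number of its own, and the replicate numbers used here only count the rats of a group. The number of broad low-background peaks had no stable direction. The log10 difference of stimulated minus sham was 0.0344 at 300 bp, 0.642 at 500 bp (without stimulated rat 3, which then had none), 0.177 with the background limit at 2, 0.561 at a −log10 q of at least 3 (again without that rat) and 1.12 without stimulated rats 1 and 3, and raw means differed by 653. Leaving out 1 rat gave −0.489 to 0.614. The share of the list turned to −0.610 points with no background limit and was 0.0544 to 0.679 points with 1 rat left out. Recurrence passed the threshold at 300 bp (21.1 points, exact p = 0.0469), with no background limit (44.1, exact p = 0.0156), against low-background narrower peaks (26.6), and with overlaps of 1 bp (28.2) or 50% (28.7), the last 3 at an exact p of 0.0469. It was 22.0 to 30.9 points with 1 rat left out. Width in other lists passed with no background limit (52.0 points, exact p = 0.0156) and was 24 to 42.9 points without 1 rat. Clustering no longer passed at 50 kb (6.64 points, exact p = 0.297) or without stimulated rats 1 and 3 (14.4 points, at the smallest p of 5 lists), and was 11.3 to 18.3 points without 1 rat. It kept passing, at 6.93 points with 300 bp, 28.7 with 500 bp, 36.3 with no background limit and 9.40 against narrower peaks of at least the median −log10 q. With no background limit 9 of 21 chromosomes passed. Under the main rule 0 passed with 1 rat left out, where 6 lists allow no exact sign-flip p below 0.03125 before adjustment. Merged regions numbered 8410 at 300 bp and 1101 at 500 bp, and 1566 to 2711 without 1 rat. At a −log10 q of at least 3, regions in all sham rats alone numbered 2 and those in at least 3 stimulated rats alone 5. Without 1 rat these were 0 to 15 and 0 to 17, and 570 regions met the second pattern when it asked for stimulated rats 2 and 4 alone. Over all 7 lists, a peak of exactly 2 stimulated rats and no sham rat was common, in 19135 of all 176202 regions. The same held for 570 of the 2711 regions with a broad low-background peak. The cause of these changes was not tested. The median of the tallest summit was only 8 to 13 tags in the lists with more than 1 such peak, and how far depth limits the widths was not tested.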
